A study of Homo sapiens with 6 samples.

Results

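NF-kB components, targets and inflammatory cytokines form a list of 42 human genes, which were matched by symbol in GENCODE 29 and looked up by Ensembl identifier, version dropped, in a table of 18677 rows of RNA-seq read counts. Of the 42 genes, 32 had a row and 30 had enough counts to be tested. The cells were H1299, a long-established line from a human non-small cell lung tumour. The SETDB1-knockout group had 3 libraries of cells that carried the guide RNA hSETDB1 sg1, and the control-knockout group had 3 libraries of cells that carried the guide RNA Control sg2. Cells of both groups grew in RPMI-1640 with serum, antibiotics and puromycin, and no inflammatory stimulus is named in the labels. Each group rests on 1 guide, and whether the libraries of a group came from separate cultures is not stated, so the p-values measure only the spread between these libraries, which may be technical.

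NF-kB is a family of dimeric transcription factors built from 5 subunit genes, NFKB1, NFKB2, REL, RELA and RELB. In resting cells, IkB proteins hold the dimers in the cytoplasm. Ligands such as TNF and IL-1 signal through TRAF adaptors to the IkB kinase complex of CHUK, IKBKB and IKBKG, which marks IkB for destruction and frees the dimers. They bind short kB sequences and switch on chemokines, cytokines, adhesion molecules and their own inhibitors. SETDB1 is an enzyme that methylates histone H3 at lysine 9, a mark of silenced chromatin.

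The libraries held 29532057 to 35941288 counts, and levels are given as CPM, counts scaled by library size and TMM factor, so that 1 count was 0.0282 to 0.0334 CPM. SETDB1 itself stood at 40.6, 36.1 and 39.1 CPM in the knockout and at 45.0, 44.0 and 41.6 CPM in the control, which checks the labels only in part, since an edit need not lower the mRNA. Of 11 markers of blood, endothelial and fibroblast cells, 7 had no row, PTPRC and CD14 among them, and no other was above 1.23 CPM in any library. Their summed level was 1.33 to 1.73 CPM in the knockout and 1.78 to 2.34 CPM in the control. The lung lineage gene NKX2-1 was at 0.231 to 0.537 CPM. Between the groups, 63.5% of all 17675 genes tested passed the threshold of an adjusted p under 0.05 (edgeR's quasi-likelihood test, Benjamini-Hochberg adjusted), 31.9% being higher and 31.6% lower after SETDB1 knockout.

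In the SETDB1 knockout, 5 of the 30 NF-kB genes rose and 17 fell, and 8 did not pass the threshold. The called share was 73.3%, against the 63.5% of all genes tested, and the share called lower was 56.7%, against 31.6%. The median log2 fold change was -0.31 over the NF-kB genes tested and 0.01 over all genes tested. The 5 higher genes were IL18, NFKBIA, ICAM1, NFKB2 and NFKB1. A called change reached 2-fold in 5 NF-kB genes (16.7%, against 12.9% of all genes tested): IL18 rose, and TNFRSF9, IL11, CSF1 and TRAF1 fell. IL18 had enough counts to be tested only through the knockout libraries, and IL11 only through the control libraries. For both, the values that let the gene be tested also made its change large. The libraries of the groups did not overlap for 24 of the 30 (80.0%), against 66.8% of all genes tested. With the median change of the genes around each gene taken out, the split was 7 higher (23.3%) and 12 lower (40.0%), against 30.3% and 26.5% of all genes tested in the same way. That median entered as a fixed value, so p-values with it taken out leave out its own error. A gene called higher in this way lies above that median and need not be higher in the knockout.

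**Figure D1:**
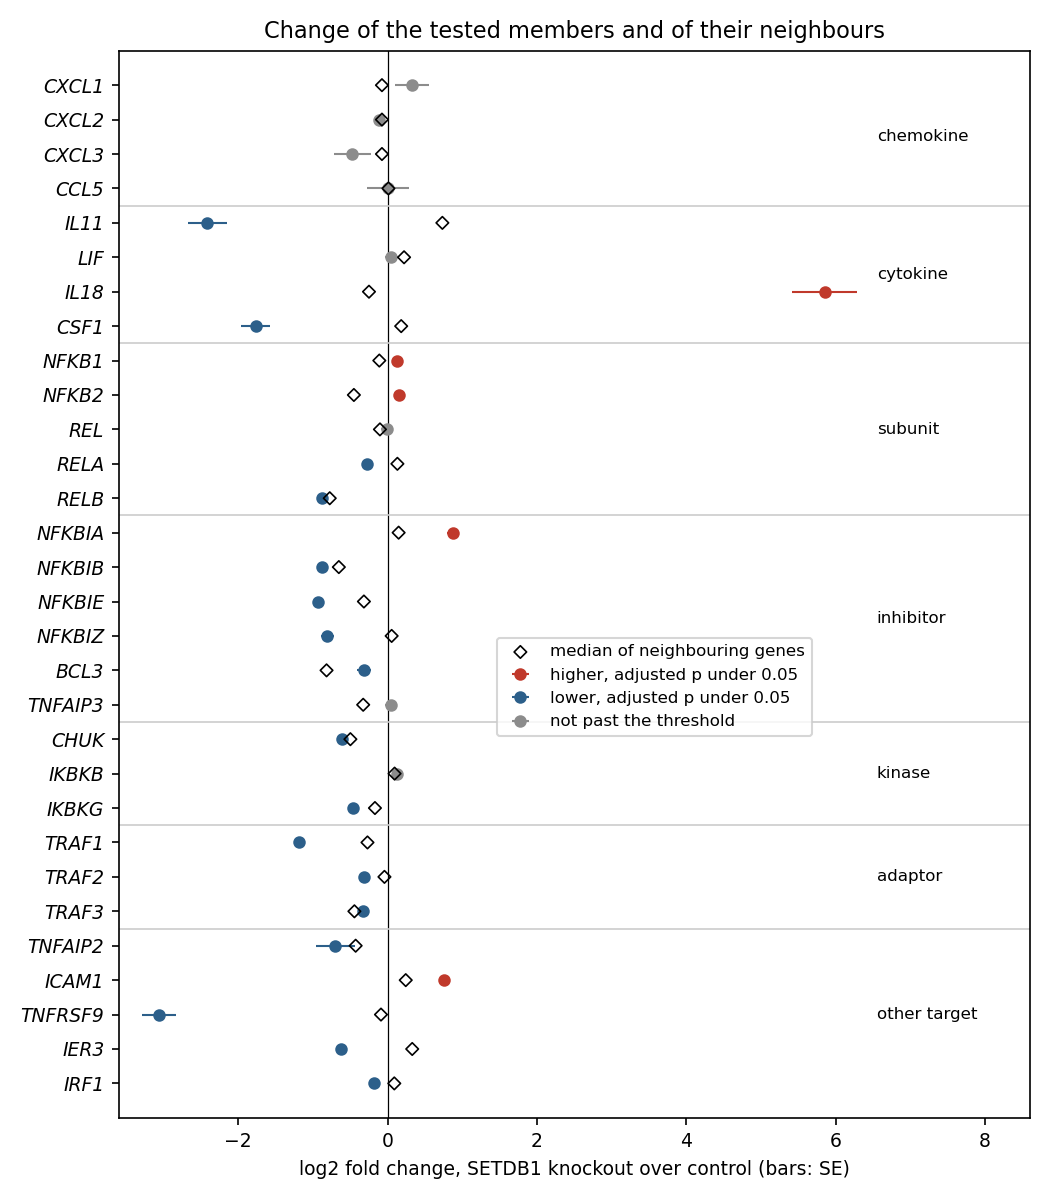
Log2 fold change of the 30 tested NF-kB genes, SETDB1 knockout over control (x axis), by role (y axis); filled points are fitted values with bars of 1 SE, coloured by call, and open diamonds are the median log2 fold change of neighbouring expressed genes. Most called points lie left of 0, while IL18 lies alone at 5.85 and RELB, CHUK and TRAF3 lie close to their diamonds.

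The kB sequences of members are shown here because several members that carry them did not move together. Promoters of 300 bases (250 before to 50 after the RefSeq start, GRCh38.p14) were searched on both strands for the 10-base NF-kB consensus, each promoter with overlapping matches being counted once. RefSeq promoters were found for 32 of the 42 genes. A match lay in 21 of their 44 promoters (47.7%), against 11.3% of all 35116 promoters in the table. Of the 19 genes with a match, 3 were higher (NFKB1, NFKB2 and NFKBIA), 6 were lower, 5 were tested without passing the threshold and the other 5 had no row. The 9 called of 14 tested are a share near the 63.5% of all genes. Of the tested genes whose promoters held no match, 1 was higher, 7 were lower and 0 did not pass the threshold. All of these few genes were thus called, against 63.5% of all genes tested. CCL2, CCL5, LIF, IL18, CSF1, CSF3, RELB, NFKBIE, IKBKB and IER3 had no entry. Matches run 5′ to 3′ along the gene, with the matched bases in capitals.
CXCL1: tggaactccGGGAATTTCCCtggcccggg
CXCL2: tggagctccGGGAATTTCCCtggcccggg
CXCL3: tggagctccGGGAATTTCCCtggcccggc
NFKB1: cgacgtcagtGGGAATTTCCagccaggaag
REL: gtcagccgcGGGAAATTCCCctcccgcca
NFKBIA: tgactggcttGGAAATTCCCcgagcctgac
NFKBIZ: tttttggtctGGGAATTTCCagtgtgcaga
TNFAIP3: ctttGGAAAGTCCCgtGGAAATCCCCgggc
TNFRSF9: agctgtggtGGGAATTTCCCatgagaccc
TRAF3: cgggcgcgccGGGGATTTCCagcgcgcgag
IRF1: ggccagggctGGGGAATCCCgctaagtgtt

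In GRCh38.p14, the CXCL1 window is chr4:73869305-73869333 on the plus strand. The CXCL2 and CXCL3 windows are chr4:74099254-74099282 and chr4:74038749-74038777, both on the minus strand. Those of NFKB1, REL and NFKBIZ are chr4:102501300-102501329, chr2:60881518-60881546 and chr3:101827757-101827786, all on the plus strand. On the minus strand, NFKBIA is at chr14:35404811-35404840, TNFRSF9 at chr1:7940894-7940922 and IRF1 at chr5:132490804-132490833. On the plus strand, TNFAIP3 is at chr6:137867188-137867217 and TRAF3 at chr14:102777406-102777435. All lie upstream of a RefSeq start, with the capitals beginning 33 bases upstream in TRAF3 and 223 bases upstream in NFKBIZ. CXCL1, CXCL2, CXCL3 and TNFRSF9 carry the same 11 capitals. A match is a string of letters and no measure of binding.

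The NF-kB subunits moved apart. RELB fell, RELA fell slightly, NFKB1 and NFKB2 were slightly higher, and REL did not pass the threshold. RELB encodes the subunit of the non-canonical pathway, which pairs with p52 from NFKB2. Its level was 34.7, 38.4 and 38.6 CPM in the knockout and 69.7, 69.6 and 65.9 CPM in the control, so every control library was above every knockout library. The log2 fold change was -0.88 ± 0.06 (SE, edgeR adjusted p = 6.50e-11, n = 3 per group). The genes around RELB had a median log2 fold change of -0.78, and with it taken out RELB changed by -0.10 (edgeR adjusted p = 0.141).

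RELA encodes p65, the main activating subunit of the canonical pathway. It was at 51.2, 50.8 and 54.9 CPM in the knockout and 63.3, 64.3 and 63.4 CPM in the control, or -0.28 ± 0.05 on the log2 scale (SE, edgeR adjusted p = 9.85e-05), and its groups did not overlap. NFKB2, the gene of the p100 precursor, was at 108, 104 and 110 CPM against 98.0, 98.6 and 94.1 CPM, which is 1.11-fold higher (edgeR adjusted p = 0.0148). Its neighbours had a median of -0.45, and with that taken out the log2 fold change was 0.60 in place of 0.15. The NFKB2 call was lost without knockout replicate 3 (edgeR adjusted p = 0.0841) and without control replicate 2 (edgeR adjusted p = 0.0540), and the alternatives for NFKB2 spanned adjusted p from 4.97e-09 to 0.0841.

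NFKB1, the gene of the p105 precursor and p50, was at 68.2, 67.6 and 66.4 CPM in the knockout and 59.6, 61.1 and 64.9 CPM in the control. The groups did not overlap, and the 1.09-fold difference only just passed (edgeR adjusted p = 0.0479). It was lost when any library other than control replicate 3 was left out, with adjusted p up to 0.194 without control replicate 2. REL encodes c-Rel, known mainly from lymphocytes. It was at 10.03, 9.71 and 10.2 CPM against 9.88, 11.1 and 9.26 CPM, and its groups overlapped (edgeR adjusted p = 0.908).

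Per kilobase of annotated exon, RELB and NFKB2 were the most abundant subunit mRNAs in the control, at 22.5 ± 0.719 and 21.6 ± 0.541 CPM per kb (SD, n = 3), and their libraries overlapped. RELA followed at 11.7 ± 0.0962, then NFKB1 at 9.89 ± 0.438 and REL at 0.765 ± 0.0697 CPM per kb. In the SETDB1 knockout NFKB2 led at 24.0 ± 0.674 CPM per kb, ahead of RELB at 12.3 ± 0.721, NFKB1 at 10.8 ± 0.144 and RELA at 9.58 ± 0.414 CPM per kb. RELB made up 33.9% ± 0.643 (SD) of the summed subunit level in the control and 21.4% ± 1.07 in the knockout. The summed level was 66.5 ± 0.969 CPM per kb in the control and 57.3 ± 1.19 CPM per kb in the knockout. Exon lengths join all annotated transcripts of a gene, so a gene with long rare transcripts is understated.

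The inhibitors split, with NFKBIA higher and NFKBIB, NFKBIE, NFKBIZ and BCL3 lower, while TNFAIP3 did not pass the threshold. NFKBIA encodes IkB-alpha, the classical feedback inhibitor that NF-kB itself induces. It was at 25.9, 25.4 and 27.4 CPM in the knockout and 13.1, 15.4 and 14.5 CPM in the control, with no overlap. The log2 fold change was 0.87 ± 0.07 (SE, edgeR adjusted p = 1.55e-09), and the neighbours had a median of 0.15.

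NFKBIB encodes IkB-beta, and stood at 33.0, 34.1 and 37.5 CPM in the knockout against 64.1, 65.0 and 63.1 CPM in the control. All knockout libraries were below all control libraries, at a log2 fold change of -0.88 ± 0.06 (SE, edgeR adjusted p = 6.90e-11). Its neighbours had a median of -0.65, and with this taken out the change was -0.22 (edgeR adjusted p = 0.00243). NFKBIB overlaps SIRT2 on the opposite strand, and since strand use in the counting is not given, reads of such pairs cannot be told apart.

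NFKBIE encodes IkB-epsilon. It was at 13.4, 14.1 and 13.1 CPM against 26.9, 24.5 and 26.0 CPM, a change of -0.93 ± 0.07 on the log2 scale (SE, edgeR adjusted p = 2.52e-10). Its neighbours had a median of -0.32, and a change of -0.61 was left without it. NFKBIZ and BCL3 encode nuclear IkB proteins, which work as cofactors of NF-kB dimers on DNA. NFKBIZ was at 12.4, 9.59 and 11.1 CPM in the knockout and 20.7, 19.7 and 17.7 CPM in the control (log2 fold change -0.81 ± 0.09, SE, edgeR adjusted p = 1.01e-07), beside neighbours at 0.05.

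BCL3 was at 6.80, 6.53 and 7.55 CPM in the knockout and 8.64, 9.62 and 7.77 CPM in the control, a narrow separation. The log2 fold change was -0.31 ± 0.10 (SE, edgeR adjusted p = 0.00757), which was lost without control replicate 2, at -0.24 (edgeR adjusted p = 0.0566; its alternatives spanned 1.77e-04 to 0.0566). The genes around BCL3 had a median of -0.82, lower than the change of BCL3 itself. Relative to that fixed value BCL3 was higher by 0.50 (edgeR adjusted p = 1.77e-04), though its level was lower in every knockout library than in any control library.

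TNFAIP3 encodes A20, a ubiquitin-editing enzyme that NF-kB induces and that shuts the pathway off. It was at 11.9, 11.9 and 12.1 CPM against 11.3, 11.4 and 12.2 CPM, with overlapping groups (log2 fold change 0.04 ± 0.07, SE, edgeR adjusted p = 0.627). The median of its neighbours was -0.33, and relative to that fixed value TNFAIP3 was higher by 0.37 (edgeR adjusted p = 2.28e-04).

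Together NFKBIA, NFKBIB and NFKBIE, the IkB genes whose proteins hold dimers in the cytoplasm, summed to 43.6 ± 0.308 CPM per kb (SD, n = 3) in the control and 31.3 ± 1.28 CPM per kb in the knockout, with no overlap between the libraries (exact permutation test, two-sided, p = 0.10). NFKBIA made up 13.9% ± 1.07 (SD, n = 3) of this sum in the control and 35.3% ± 0.698 in the knockout (exact permutation test, p = 0.10). A two-sided exact test of 3 against 3 libraries cannot go below 0.10, the value that groups without overlap give. The test was run on 4 sums and shares, with an adjusted p of 0.10 for each. These were both sums and the shares of NFKBIA and RELB, and the shares of the other genes were not tested. NFKBIB stayed the most abundant of the group per kilobase, at 27.6 ± 0.395 CPM per kb in the control and 15.0 ± 1.00 in the knockout.

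**Figure D2:**
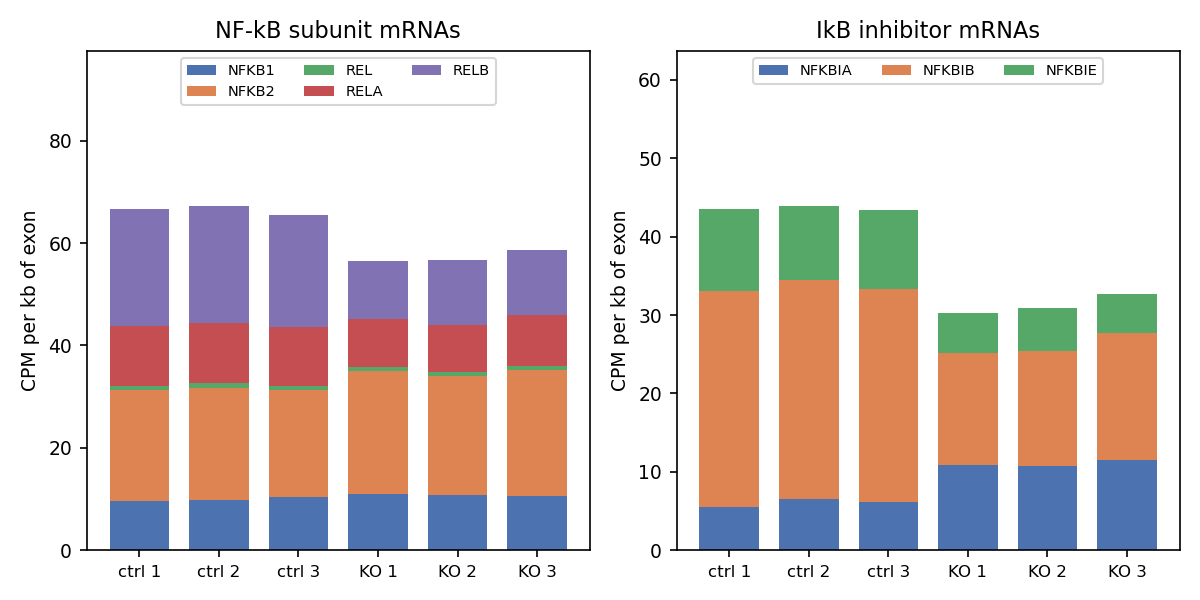
Stacked level of the 5 NF-kB subunit mRNAs (left) and of the IkB mRNAs NFKBIA, NFKBIB and NFKBIE (right) in each library (x axis; ctrl is control knockout, KO is SETDB1 knockout), in CPM per kb of annotated exon (y axis, from 0). The RELB share is smaller and the NFKBIA share larger in every knockout library than in any control library.

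Of the IkB kinase genes, CHUK and IKBKG fell and IKBKB did not pass the threshold. CHUK encodes IKK-alpha, which also drives the non-canonical pathway. It was at 31.4, 34.4 and 32.4 CPM in the knockout and 48.9, 51.3 and 50.5 CPM in the control (log2 fold change -0.62 ± 0.06, SE, edgeR adjusted p = 9.56e-09). Its neighbours had a median of -0.50, and with it taken out the call was lost, at -0.12 (edgeR adjusted p = 0.0788). CHUK shares sequence with an overlapping annotated gene, ERLIN1, on the same strand.

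IKBKG encodes NEMO, the regulatory subunit of the complex. It was at 15.5, 15.8 and 15.9 CPM in the knockout and 22.1, 21.5 and 21.6 CPM in the control, a change of -0.47 ± 0.06 on the log2 scale (SE, edgeR adjusted p = 1.95e-06). It has a near-identical pseudogene copy, so its reads can have been split or dropped. IKBKB, which encodes IKK-beta, the kinase of the canonical pathway, was at 31.0, 30.2 and 30.1 CPM against 27.8, 29.1 and 27.0 CPM. Its groups did not overlap, yet the log2 fold change of 0.12 ± 0.06 missed the threshold (SE, edgeR adjusted p = 0.0753), and passed it with scaling by library size alone (edgeR adjusted p = 0.0236).

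All 3 TRAF adaptors on the list fell, where 63.5% of all genes tested were called and 31.6% were called lower. TRAF1, both an adaptor at TNF receptors and an NF-kB target, was at 16.1, 14.3 and 13.6 CPM in the knockout and 33.8, 32.7 and 33.3 CPM in the control (log2 fold change -1.19 ± 0.07, SE, edgeR adjusted p = 8.56e-12), while its neighbours had a median of -0.27. TRAF2, which carries the signal of TNF receptors to the kinases, was at 35.4, 34.8 and 35.1 CPM against 43.0, 42.7 and 44.7 CPM, which is 1.24-fold lower (edgeR adjusted p = 4.37e-05). TRAF3, which restrains the non-canonical pathway by keeping its kinase low, was at 98.9, 103 and 108 CPM against 132, 130 and 129 CPM, 1.26-fold lower (edgeR adjusted p = 1.13e-05). For all 3 the groups did not overlap, as for 66.8% of all genes tested. The neighbours of TRAF3 had a median of -0.44, and with it taken out TRAF3 was no longer called and had the opposite sign, 0.11 (edgeR adjusted p = 0.0786).

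Of the 4 tested cytokines, IL18 rose and IL11 and CSF1 fell, all 3 at low levels, and LIF did not pass the threshold. IL18 encodes a cytokine of the IL-1 family that is kept as an inactive precursor until cleaved by an inflammasome. It was at 1.37, 1.30 and 1.55 CPM in the knockout (41, 45 and 53 counts) and at 0.0334, 0 and 0.0282 CPM in the control (1, 0 and 1 counts). The ratio of knockout to control was 68.3, with an exact 95% counting interval of 18.6 to 569.6 that covers counting error only (edgeR adjusted p = 5.62e-10). IL18 lies at chr11:112143251-112164117 (GENCODE 29, GRCh38), where it overlaps the antisense gene AP002884.3, and its neighbours had a median of -0.25. IL18 reached the level of the low-count filter only in the knockout.

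IL11, a cytokine of the IL-6 family that signals through the shared receptor subunit gp130, was at 0.400, 0.173 and 0.263 CPM in the knockout and 1.57, 1.55 and 1.33 CPM in the control. It fell by 2.41 ± 0.27 on the log2 scale (SE, edgeR adjusted p = 1.50e-07), and 1 knockout library and all 3 control libraries were above the level of the low-count filter, 0.306 CPM. Its neighbours had a median of 0.73, in the other direction. CSF1, the growth factor of macrophages, was at 0.900, 1.30 and 1.14 CPM in the knockout and 5.005, 3.53 and 3.05 CPM in the control. The log2 fold change of CSF1 was -1.77 ± 0.19 (SE, edgeR adjusted p = 1.45e-07), with neighbours at 0.18 and no overlap between the groups.

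LIF, another IL-6 family cytokine, was the most abundant cytokine of the list in both groups. Its level was 15.6, 13.3 and 15.0 CPM in the knockout and 15.8, 13.7 and 12.9 CPM in the control, so the groups overlapped (log2 fold change 0.05 ± 0.08, SE, edgeR adjusted p = 0.612). Per kilobase, LIF was at 3.69 ± 0.289 CPM per kb in the knockout and 3.56 ± 0.387 in the control, whereas CSF1 was at 0.206 ± 0.0372 and 0.713 ± 0.188 CPM per kb.

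Of the 10 chemokines, 5 had a row, 4 were tested and 0 passed the threshold by edgeR, with 1 (CXCL2) at an unadjusted p under 0.05. CXCL2, an attractant of neutrophils, was at 120, 121 and 119 CPM in the knockout and 133, 126 and 129 CPM in the control. These groups did not overlap, but the difference was small and missed the threshold (log2 fold change -0.11 ± 0.05, SE, edgeR adjusted p = 0.0537). It passed with limma-voom (adjusted p = 0.0479), and DESeq2 called 0 of the 4 chemokines.

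CXCL1 and CXCL3, paralogs of CXCL2, were close to silent. CXCL1 was at 0.900, 0.751 and 0.995 CPM in the knockout and 0.601, 0.757 and 0.734 CPM in the control (edgeR adjusted p = 0.217). CXCL3 was at 0.900, 0.549 and 0.644 CPM against 1.00, 0.725 and 1.13 CPM (edgeR adjusted p = 0.106), with overlapping groups for both genes. CXCL3 passed as lower when knockout replicate 1 (edgeR adjusted p = 0.0362) or control replicate 2 (edgeR adjusted p = 0.0445) was left out, and its alternatives spanned 0.0362 to 0.349. Per kilobase, CXCL2 stood at 86.4 ± 2.23 CPM per kb in the control, against 0.538 ± 0.0652 for CXCL1 and 0.429 ± 0.0931 for CXCL3. The kB matches printed for these paralogs have the same 11 letters, and the 51 bases centred on them were identical at 43 positions between CXCL1 and CXCL2, at 47 between CXCL1 and CXCL3 and at 42 between CXCL2 and CXCL3. How reads matching more than 1 of these paralogs were counted is not stated, and their transcripts were not compared.

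CCL5, an attractant of T cells, was at 0.400, 0.462 and 0.497 CPM in the knockout and 0.434, 0.473 and 0.452 CPM in the control (edgeR adjusted p = 0.985). CXCL8 (interleukin 8) and IL1B had rows but too few counts to be tested. CXCL8 had 15, 2 and 3 counts in the knockout and 1, 2 and 6 in the control, and IL1B had 14, 0 and 3 counts in the knockout and 1, 2 and 5 in the control. For both genes knockout replicate 1 was the only library above 10 counts, as each row of the table has in at least 1 library. Such rows were 634 (3.39% of the table), and in 103 of them the library was knockout replicate 1, between 73 and 129 for each library.

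The chemokines CXCL5, CXCL10, CXCL11, CCL2 and CCL20 and the cytokines IL6, IL1A, TNF, CSF2 and CSF3 had no row and were not analysed here. The smallest row maximum in the table was 11 counts.

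**Figure D3:**
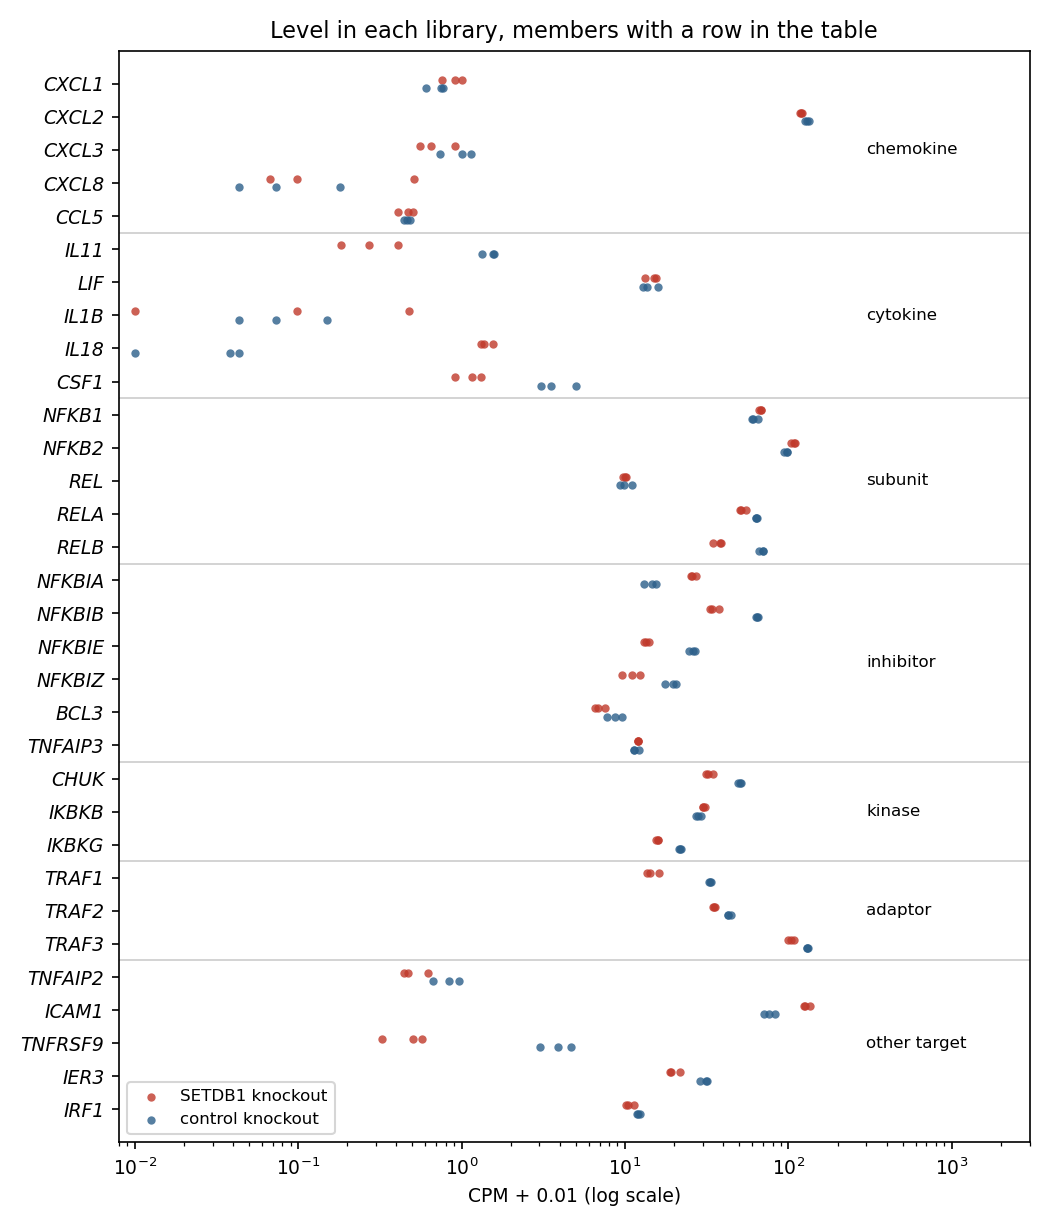
Level of the 32 NF-kB genes with a row in each of the 6 libraries (x axis, CPM + 0.01 on a log scale; a point at 0.01 is 0 counts), by role (y axis), red for SETDB1 knockout and blue for control. Most chemokines and cytokines lie under 10 CPM with CXCL2 and LIF as exceptions, and CXCL8 and IL1B each show 1 knockout library apart from the other 2.

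The other targets gave 1 rise and 4 falls. That is 100% called, against 63.5% of all genes tested, and 80.0% called lower, against 31.6%. ICAM1, the adhesion molecule that binds leukocyte integrins, was at 136, 125 and 126 CPM in the knockout and 82.9, 76.5 and 71.0 CPM in the control. It was 1.68-fold higher (log2 fold change 0.75 ± 0.06, SE, edgeR adjusted p = 1.41e-09), and 0.51 was left with the median of its neighbours taken out. TNFRSF9 encodes the costimulatory receptor 4-1BB. It was at 0.567, 0.318 and 0.497 CPM in the knockout and 3.87, 4.70 and 3.02 CPM in the control, a change of -3.06 ± 0.22 on the log2 scale (SE, edgeR adjusted p = 4.03e-10), beside neighbours at -0.09. This is the steepest fall among the tested NF-kB genes.

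IER3, an early response gene of cell survival, was at 21.7, 18.9 and 19.1 CPM in the knockout and 31.8, 28.7 and 31.2 CPM in the control (log2 fold change -0.62 ± 0.07, SE, edgeR adjusted p = 1.26e-07), while its neighbours had a median of 0.33. IER3 overlaps the antisense gene IER3-AS1. IRF1, an interferon-regulated transcription factor, was at 11.4, 10.1 and 10.5 CPM against 12.3, 11.95 and 11.9 CPM, which is 1.13-fold lower (edgeR adjusted p = 0.0449). Leaving out any library other than knockout replicate 1 ended that call, with adjusted p up to 0.157. TNFAIP2, a gene first found as TNF-induced, was at 0.433, 0.462 and 0.614 CPM against 0.834, 0.662 and 0.960 CPM (log2 fold change -0.70 ± 0.26, SE, edgeR adjusted p = 0.0231). That call was lost with DESeq2 (adjusted p = 0.0966) and without knockout replicate 1, knockout replicate 2 or control replicate 3, with adjusted p from 0.0696 to 0.114 for these 3. It was also lost with the median of its neighbours taken out, at -0.27 (edgeR adjusted p = 0.387).

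By position, 9 of the 30 tested NF-kB genes (RELB, BCL3, NFKBIB, CHUK, NFKB2, TRAF3, TNFAIP2, TNFAIP3 and NFKBIE) had neighbours with a median log2 fold change below -0.3, as had 14.8% of all genes with such a median, and IL11 and IER3 had neighbours above 0.3, as had 8.13%. Chromosome 19 holds BCL3 (chr19:44747705-44760044) and RELB (chr19:45001430-45038198), which lie 241 kb apart, and NFKBIB (chr19:38899700-38908893), which lies 5839 kb before BCL3 (GENCODE 29, GRCh38). On chromosome 10, CHUK and NFKB2 lie 2164 kb apart with neighbours at -0.50 and -0.45, and CHUK fell while NFKB2 did not. On chromosome 14, TRAF3 and TNFAIP2 lie 212 kb apart with neighbours at -0.44 and -0.43. Several named genes also overlap other annotated genes, among them RELA, LIF, TNFAIP3, TNFRSF9, ICAM1, IRF1, CCL5, IL1R1, IL18R1, PTX3, PLAU, IL32 and LIFR. Neighbouring genes were the 25 nearest expressed genes on each side, and what made such stretches move together was not tested.

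A further 131 genes of the pathway were listed by role, of which 103 had a row and 101 were tested. Of these, 22 were higher and 53 lower (74.3% called, against 63.5% of all genes), with a median log2 fold change of -0.20. The counts by role stand beside 31.9% of all genes tested called higher and 31.6% called lower. Receptors of the inducing ligands rose in 3 and fell in 6 of 15 (60.0% called, near the share of all genes, and 40.0% called lower). IL1R1, the signalling receptor of IL-1, was at 5.63, 5.81 and 4.68 CPM in the knockout against 10.8, 11.4 and 9.77 CPM in the control (edgeR adjusted p = 3.04e-08). IL18R1, a subunit of the receptor that binds IL-18, was at 6.30, 5.98 and 5.33 CPM against 2.74, 2.55 and 2.37 CPM (2.30-fold higher, edgeR adjusted p = 2.21e-08). Transcripts of IL18 and of its receptor subunit were thus both higher. So was IL18BP, the gene of the IL-18 binding protein, by 1.20-fold with overlapping groups (edgeR adjusted p = 0.0476). CD40, a receptor that feeds the non-canonical pathway, was 2.17-fold higher (edgeR adjusted p = 3.88e-11), with neighbours at 0.37.

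Adaptors and kinases fell in 14 and rose in 5 of 24 (79.2% called, against 63.5% of all genes, and 58.3% called lower, against 31.6%). IRAK4, the kinase that starts signalling below IL-1 and Toll-like receptors, was at 17.0, 16.4 and 17.2 CPM in the knockout and 36.9, 36.2 and 40.2 CPM in the control (log2 fold change -1.16 ± 0.06, SE, edgeR adjusted p = 4.25e-12). TAB3, a ubiquitin-binding partner of the kinase TAK1, was 1.48-fold higher (edgeR adjusted p = 3.61e-08). Ubiquitin enzymes and negative regulators fell in 8 and rose in 4 of 19 (63.2% called, near the share of all genes, and 42.1% called lower). ZFP36 encodes tristetraprolin, which marks cytokine mRNAs for decay. It was at 19.0, 15.7 and 15.6 CPM against 40.7, 37.9 and 36.8 CPM (log2 fold change -1.20 ± 0.07, SE, edgeR adjusted p = 2.74e-11), in a stretch of chromosome 19 where neighbours had a median of -0.78. SIGIRR, an inhibitory receptor of the IL-1 family, was at 13.7, 13.5 and 13.8 CPM against 5.57, 5.58 and 5.59 CPM, 2.45-fold higher (edgeR adjusted p = 2.41e-11). NFKBID, a further nuclear IkB gene on chromosome 19, was 1.34-fold lower (edgeR adjusted p = 9.40e-05), with neighbours at -0.70, and 0.28 higher on the log2 scale with that median taken out.

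Among transcription factors that act with NF-kB at cytokine genes, 5 fell and 4 rose of 12. ATF3 was at 5.43, 5.14 and 5.59 CPM in the knockout and 11.3, 10.03 and 11.1 CPM in the control, and EGR1 was at 26.0, 24.2 and 23.4 CPM against 12.7, 12.1 and 10.4 CPM (edgeR adjusted p = 5.21e-09 and 3.15e-10). The AP-1 genes JUN and JUNB moved in opposite directions, JUN by -0.85 ± 0.05 and JUNB by 0.83 ± 0.06 on the log2 scale (SE, edgeR adjusted p = 4.54e-11 and 2.59e-10).

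Other NF-kB targets fell in 15 and rose in 4 of 23 tested, with a median log2 fold change of -0.54. Their called share was 82.6%, against 63.5% of all genes, and 65.2% were called lower, against 31.6%. PTX3, a secreted pattern recognition protein, was at 7.27, 7.37 and 5.999 CPM in the knockout and 47.0, 43.7 and 42.1 CPM in the control, and fell by 2.69 ± 0.08 on the log2 scale (SE, edgeR adjusted p = 3.34e-16). IL32, a proinflammatory cytokine gene, was 3.35-fold lower (edgeR adjusted p = 1.10e-13). PLAU, which encodes urokinase, stood at 480, 428 and 433 CPM against 1193, 1067 and 1036 CPM, and was 2.46-fold lower (edgeR adjusted p = 1.26e-12), with neighbours at -0.50. EFNA1, an ephrin ligand, was 2.33-fold higher (edgeR adjusted p = 8.33e-08).

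Of receptors for the secreted ligands, 8 of 20 had a row and were tested, 5 fell and 2 rose. The called share was 87.5%, against 63.5% of all genes, and 62.5% were called lower, against 31.6%. CXCR4, a chemokine receptor, was at 0.700, 0.925 and 0.702 CPM in the knockout and 4.90, 4.10 and 3.59 CPM in the control (log2 fold change -2.42 ± 0.18, SE, edgeR adjusted p = 3.59e-10), with neighbours at -0.60. The receptor genes of the IL-6 family fell in IL6R (2.40-fold), LIFR (2.30-fold) and IL6ST, the gene of gp130 (1.24-fold), while IL11RA was 1.35-fold higher (edgeR adjusted p at most 1.33e-04 for these 4). OSMR, the oncostatin M receptor gene of the same family, was at 159, 148 and 152 CPM in the knockout and 166, 146 and 146 CPM in the control, and did not pass the threshold (edgeR adjusted p = 0.944), though it did as higher with the median of its neighbours taken out (0.15, edgeR adjusted p = 0.0363). LIF did not pass the threshold while LIFR, which encodes its receptor subunit, fell from 31.6 ± 1.64 to 13.7 ± 0.475 CPM (SD, n = 3).

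**Figure D4:**
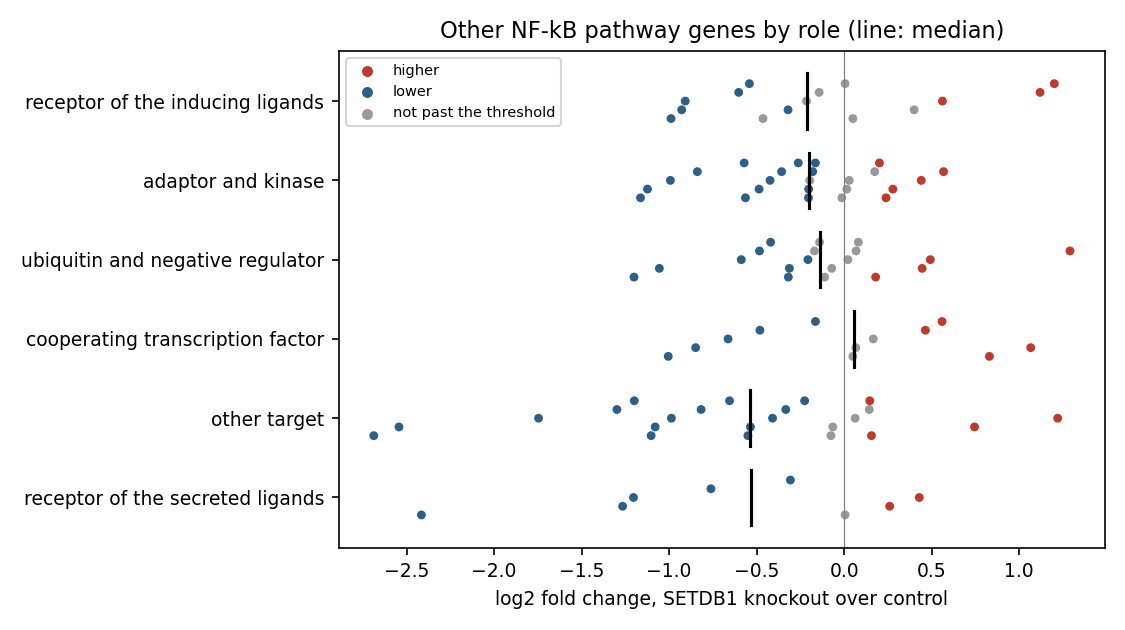
Log2 fold change, SETDB1 knockout over control (x axis), of the 101 other tested pathway genes by role (y axis); each point is a gene, coloured by call, with points spread vertically for sight only, and black lines are medians. Among called genes, falls outnumber rises in every role group. The median of all tested genes lies right of 0 only for the cooperating transcription factors.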

How the data were processed

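RNA-seq was run on 6 libraries of H1299 cells, 3 per group, grouped by sample titles. The authors deposited raw counts per gene. Per the submitters' processing notes, FastQC, TopHat2, HTSeq and GRCh38.p7 were used. Their versions, settings and use of strand are not stated in the sources used here. GENCODE 29 (GRCh38) named 18595 of the 18677 rows. Counts were tested in R 4.3.3 with edgeR 4.0.16 (filterByExpr, TMM, robust glmQLFit and glmQLFTest, two-sided, Benjamini-Hochberg over 17675 genes); 1002 rows were filtered out. SE is the log2 fold change over the root of F. Replicates differed by more than counting error (chi-square per degree of freedom 2.32 to 10.3). The steps were tested on simulated data in which far fewer genes changed than were called here, so that test does not cover changes this widespread. CSF2RA has a row for each pseudoautosomal copy, and the X copy was used.

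Gene members and lists were chosen with earlier results of these data known. Full values are given for subunits, inhibitors, kinases and members changed at least 2-fold with 1 CPM in the higher group. Per role of the other pathway genes, the called genes with the largest rise and fall are named. Their groups had to be free of overlap, with at least 1 CPM in the higher group. Library values are given for these genes except TAB3, EFNA1 and IL11RA. Values of the remaining members, and of CD40, NFKBID, JUN, JUNB, IL32, PLAU, IL6R, LIFR, IL6ST, IL18BP and OSMR, were chosen after they were seen. Alternatives were DESeq2 1.42.0 and its size factors, library size alone, limma-voom (limma 3.58.1), no filter, at least 1 CPM in 3 libraries, an adjusted p under 0.01, the replicate number as a block, the neighbourhood median (25 genes with log2 CPM above 3 on each side) taken out, and each library left out.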

Additional observations from a re-analysis of the deposited data

How the results depend on the processing

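Of 30 tested NF-kB genes, all kept direction and call with DESeq2 size factors, 29 with no filter, 29 with limma-voom, 27 with DESeq2 and 27 with library size alone, while 21 did with the neighbourhood median taken out. With at least 1 CPM in 3 libraries, 26 had a value and all 26 kept direction and call. NF-kB genes called higher numbered 3 at an adjusted p under 0.01 in place of 5, and 3 to 5 without 1 library. SETDB1 was lower by edgeR (log2 -0.17, adjusted p = 0.0151), which does not pass 0.01, and lost its call with library size alone (-0.13, adjusted p = 0.0605) and without knockout replicate 2 (-0.13, adjusted p = 0.0896). Without 1 library, SETDB1 ranged from -0.21 to -0.13. With the neighbourhood median taken out, signs changed for BCL3 (0.50), TRAF3 (0.11), LIF (-0.17), REL (0.091), CCL5 (-0.0038) and NFKBID (0.28), and REL also changed sign with library size alone (0.029). Without 1 library, the log2 fold change ranged from -0.067 to 0.082 for CCL5, from -0.018 to 0.14 for LIF, from -0.075 to 0.052 for REL and from -0.034 to 0.064 for OSMR. The cause was not tested.

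No pairing by replicate number was seen: same-numbered deviations from group means correlated at 0.09, -0.06 and 0.02, and not every library correlated best with its own number. With 3 libraries per group, this check cannot settle whether the libraries were paired. With the replicate number as a block, 11703 genes were called in place of 11219, and 5 NF-kB genes were higher and 18 lower. CXCL2 was the only NF-kB gene whose call changed with the block (-0.11, edgeR adjusted p = 0.0287). Members with few counts, such as IL18 in the control, are limited by depth.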
